A study of Homo sapiens with 8 samples.

Results

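Saos-2, an established cell line from a human osteosarcoma, carries no p53, and the resting cells described here are its 3 samples labelled untreated, replicates 1 to 3, of the 8 arrays in the series. They were picked out by their labels, with earlier results of these data known. The other arrays, which carry cells exposed to the compound labelled Prima for 6 h (3 arrays) or 12 h (2 arrays), were not used. All 8 arrays carry RNA of this p53-null line, and the labels name no other allele, and no agent for the untreated cells. Total RNA was labelled with biotin and hybridised to Affymetrix 3′ expression arrays, 1 array per sample. The labels do not say whether the 3 replicates came from separate cultures, so the spread between them may be technical.

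Each array reports 1 signal per probe set, a group of short probes against the 3′ part of a transcript, computed by the submitters with MAS5 on a linear scale. Signals were placed by their percentile among the 54613 probe sets of the same array that are not controls, so that 100 is the brightest. A percentile places a signal within its array. Probe sets differ in how strongly they bind, so an order of percentiles is no order of transcript amounts. A gene was read through the probe set of its own symbol with the highest mean percentile, which gave 19741 genes.

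Osteoblasts build bone. The transcription factors RUNX2 and SP7 commit mesenchymal precursors to this fate, the cells then secrete a matrix of type I collagen, and alkaline phosphatase and small acidic proteins help that matrix to mineralise. Osteosarcoma is a tumour of such cells, and Saos-2 is widely used as a model of an osteoblast that can mineralise in culture. Growing cells of any origin also devote much of their messenger RNA to ribosomes, protein folding, energy metabolism and the duplication of the genome, while genes of other tissues are kept silent, often from promoters poor in the dinucleotide CpG.

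The 3 arrays agreed closely at the bright end and poorly at the dim end. Across all probe sets, Spearman's rho was 0.846 between replicates 1 and 3, 0.730 between 1 and 2, and 0.710 between 2 and 3. Among the brightest 10% of probe sets these values were 0.907, 0.875 and 0.885, although that narrower range of signals by itself lowers a rank correlation. In the lower 50% of probe sets they were 0.218, 0.104 and 0.0362, again over a narrower range, so dim probe sets kept their order only weakly from array to array. Probe sets of an array share its RNA, labelling and scan, and the values are descriptions of these arrays.

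Replicate 2 stood apart from the other arrays in its dim signals. The median signal was 22.9 on replicate 1, 50.8 on replicate 2 and 15.6 on replicate 3, while the mean signal without the extremes was 100.01 on each. Probe sets for 5 bacterial transcripts (27 probe sets for dap, lys, phe, thr and trp), which human RNA should not light, had median signals of 5.44, 16.8 and 2.03 in the same order. Whether those transcripts were added to the samples is not given in the sources used here. The signal of the actin 3′ probe set over that of its 5′ probe set, a measure of RNA integrity, was 1.34, 1.12 and 1.32, and for GAPDH 0.927, 0.934 and 0.947. No probe set carried the identical signal on any pair of arrays.

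**Figure D1:**
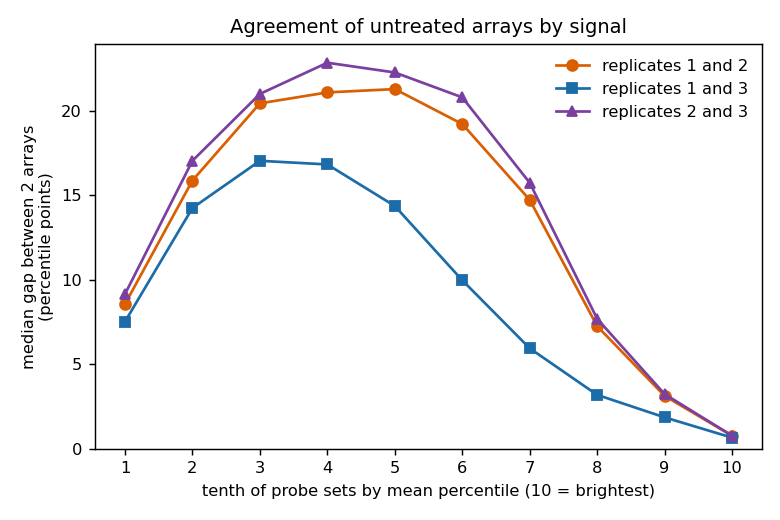
Median gap between a pair of untreated arrays, in percentile points, for probe sets grouped into 10 equal bins by mean percentile (x axis, 10 = brightest); each line is 1 pair. The gap is 0.658 to 0.775 points in the brightest bin for all pairs and rises to 22.9 points for replicates 2 and 3 in the fourth bin.

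A gene was called bright when its probe set lay at or above the 90th percentile on all 3 arrays, and 2953 of 19741 genes were (15.0%). A gene was called dim when every one of its probe sets lay below the 50th percentile on all 3 arrays, and 4547 were (23.0%). With replicate 2 left out, these rules took 3201 and 6312 genes. Some probe sets have an identifier ending in _x_at or _s_at, the manufacturer's marks for probes that can bind several transcripts. Without them 17067 genes were left, of which 9.83% were bright and 27.6% dim. Genes with no other probe set dropped out, here and in the list counts below. With the median over a gene's probe sets 7.57% of all genes were bright and 33.9% dim. The files carry no detection calls, so dim does not mean absent. The brightest bacterial probe set reached the 52.7th percentile on replicate 1, the 73.25th on replicate 2 and the 42.0th on replicate 3. The middle of the array lay within the range of these controls on replicates 1 and 2, and above it on replicate 3.

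Percentiles of 5987 genes stayed within 5 points over the 3 arrays (30.3%). Of the 2953 bright genes, 2944 did, and their median range was 1.05 points. Of the 4547 dim genes 233 did, with a median range of 20.7 points. The class limits set part of this contrast, since a bright gene cannot range over more than 10 points and a dim gene can range over almost 50. Over all genes the median range was 12.8 points, and 950 genes (4.81%) ranged over more than 50 points.

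The brightest genes were those of the translation machinery, the cytoskeleton and the mitochondrial genome. Of the 30 genes with the highest mean percentile, 17 encode cytosolic ribosomal proteins, and their signals lay between 4695 and 8765 for the 30 genes as a whole. EEF1A1, which delivers aminoacyl-tRNA to the ribosome, came first with signals of 6153, 6230.3 and 8765 on replicates 1, 2 and 3, a mean of 7049 ± 1486 (SD, n = 3). RPS23 and RPL7, of the small and the large ribosomal subunit, followed with 6401, 6348 and 8569 and with 6308, 6153 and 8651. Replicate 3 was the highest array for each, and over the 30 genes the median signal on replicate 3 was 1.39 times that on replicate 1, against 1.00 for replicate 2, although their percentiles moved by no more than 0.117 points.

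The rest of the 30 included ACTB (cytoplasmic actin), ACTA2 (an actin of contractile cells), TUBA1B and TUBB (tubulins) and TMSB4X (thymosin beta 4, which binds actin monomers). COX1 and ND4, encoded by the mitochondrial genome, gave 6286, 6287 and 7392 and 5593, 5669.9 and 7643. HSP90AA1, a chaperone, PPIA, a prolyl isomerase, TPT1, a growth-associated tumour protein, and B2M, the light chain of MHC class I, also stood there. CD24, a small glycoprotein of the cell surface, gave 5111, 5172 and 7137. Of the 30 probe sets, 27 have an identifier ending in _x_at or _s_at, so the share of a single family member in a signal such as that of CD24 or RPL7 is uncertain. In all, 82 genes stood among the 100 brightest on every array, and 241 genes lay above the 99th percentile on each.

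The promoters of these genes show sequence features that are described for the whole profile further on, and 4 are printed to show them. The 250 bases before the annotated start are given 5′ to 3′ on the gene's strand, from RefSeq on GRCh38.p14. Capitals mark TATAAA (the TATA box), CCAAT (the CCAAT box) and GGGCGG (the GC box, which binds SP1), each searched on both strands. PPIA, RPL9 and EEF1A1 are the brightest genes holding the TATA, CCAAT and GC box respectively among those of the 30 that were searched. Genes with no promoter given, and those on a chromosome left out of the printing, were passed over. The 3 promoters lie at chr7:44796431-44796680 (plus strand), chr4:39458923-39459172 (minus strand) and chr6:73521033-73521282 (minus strand). DMP1, a dim osteocyte gene at chr4:87650030-87650279 (plus strand), was added after its values were seen, as a contrast.
PPIA: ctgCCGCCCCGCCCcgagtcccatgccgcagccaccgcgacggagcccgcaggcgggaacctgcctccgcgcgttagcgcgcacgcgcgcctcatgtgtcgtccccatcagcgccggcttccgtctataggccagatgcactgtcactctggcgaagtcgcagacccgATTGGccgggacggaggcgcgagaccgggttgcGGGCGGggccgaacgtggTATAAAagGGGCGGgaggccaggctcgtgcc
RPL9: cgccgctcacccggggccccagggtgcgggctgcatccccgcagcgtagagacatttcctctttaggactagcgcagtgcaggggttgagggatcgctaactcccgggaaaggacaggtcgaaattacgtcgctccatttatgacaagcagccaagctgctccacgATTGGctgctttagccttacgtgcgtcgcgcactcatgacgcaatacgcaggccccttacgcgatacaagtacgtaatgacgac
EEF1A1: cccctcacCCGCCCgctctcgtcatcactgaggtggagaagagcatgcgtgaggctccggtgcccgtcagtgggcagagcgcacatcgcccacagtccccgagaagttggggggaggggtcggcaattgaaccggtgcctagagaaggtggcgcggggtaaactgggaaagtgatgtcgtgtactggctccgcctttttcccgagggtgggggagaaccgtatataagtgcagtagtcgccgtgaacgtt
DMP1: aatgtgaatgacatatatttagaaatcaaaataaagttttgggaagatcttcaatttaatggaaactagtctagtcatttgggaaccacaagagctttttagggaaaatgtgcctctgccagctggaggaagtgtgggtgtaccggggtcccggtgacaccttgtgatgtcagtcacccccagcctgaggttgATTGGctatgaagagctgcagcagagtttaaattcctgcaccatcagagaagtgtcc

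PPIA has its TATA box 31 bases before the start, 4 GC boxes, 2 of them in the last 50 bases, and a CCAAT box on the opposite strand 82 bases before the start. RPL9 has a CCAAT box on the opposite strand 84 bases before the start and neither other motif. EEF1A1 has 1 GC box, on the opposite strand near the far end, and no exact TATAAA, although the similar string tatataa stands close to its start. DMP1 also has a CCAAT box, on the opposite strand 57 bases before the start, and neither other motif. The ratio of observed to expected CpG, which is near 1 where CpG has not been lost, was 1.09 for PPIA, 1.08 for RPL9 and 0.864 for EEF1A1, against 0.167 for DMP1, whose promoter also has the lowest GC content of the 4 at 44.4%.

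Osteoblast markers were spread over the whole range of signals. Of 22 osteoblast markers measured, 5 were bright (COL1A1, SPARC, RUNX2, CDH11 and DLX5), or 22.7% against 15.0% of all genes. The 4 dim markers (MEPE, DMP1, SOST and PHOSPHO1) were 18.2%, against 23.0% of all genes. The median percentile was 75.4 against 58.4 for all genes. RUNX2, the factor that commits cells to bone, gave 2066, 1619.9 and 2067 on replicates 1, 2 and 3. DLX5, a homeobox factor of skeletal development, gave 389, 403 and 436. SP7, the factor downstream of RUNX2, gave 93.3, 96.7 and 105. RUNX2 and DLX5 were bright on every array, while SP7 lay at the 76.7th, 71.4th and 78.00th percentiles, outside the bright class on each.

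Of the matrix genes, COL1A1, the main chain of type I collagen, gave 3118, 2794 and 3704. SPARC (osteonectin), a collagen-binding glycoprotein, gave 2044, 1815 and 2192. CDH11, the osteoblast cadherin, gave 1439, 1310.2 and 1737. By signal, replicate 3 was the highest and replicate 2 the lowest array in all of these, while by percentile replicate 2 was the highest. Each was bright on every array. COL1A2, the partner chain of COL1A1, lay lower in its array, with 42.9, 144 and 53.5 at the 65.05th, 81.01st and 69.6th percentiles, and replicate 2 was the highest. The probe sets of COL1A1 disagreed widely. The highest lay at the 99.3rd to 99.4th percentile, while another was at the 56.6th, 16.1st and 17.5th, and RUNX2's 6 probe sets ran from the 98.7th down to the 7.64th percentile on replicate 1.

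ALPL, the alkaline phosphatase that frees phosphate for mineral, gave 140.3, 286 and 131, and replicate 2 was above the others. IBSP (bone sialoprotein), an acidic protein of the mineralising matrix, gave 77.4, 50.7 and 57.3, at the 74.3rd, 49.9th and 70.5th percentiles. SPP1 (osteopontin), another, gave 18.9, 36.2 and 22.3, at the 45.2nd, 40.9th and 56.96th percentiles. Neither was bright on any array, and IBSP was lowest and SPP1 highest on replicate 2 by signal. The parathyroid hormone receptor PTH1R gave 26.3, 14.7 and 37.9, lowest on replicate 2. TNFRSF11B (osteoprotegerin), a decoy that restrains osteoclasts, gave 183, 107 and 122, and BMP2, a bone-inducing ligand, 107, 99.05 and 88.9. These genes lay between the bright and the dim class.

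The dim members are genes of osteocytes and of mineral formation. SOST (sclerostin), the osteocyte's WNT inhibitor, gave 18.7, 8.64 and 0.525. DMP1, a matrix phosphoprotein, gave 4.59, 6.19 and 0.945, and MEPE, a related phosphoprotein, 5.44, 42.9 and 1.18. PHOSPHO1, a phosphatase of matrix vesicles, gave 3.44, 7.88 and 1.67. All lay below the 50th percentile on every array. BGLAP and IFITM5 had no probe set of that symbol alone and were not analysed here. When only probe sets not ending in _x_at or _s_at were read, 1 marker was bright in place of 5. COL1A1 and DLX5 have no probe set of that kind and left this count. With the median over a gene's probe sets 1 was bright as well.

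**Figure D2:**
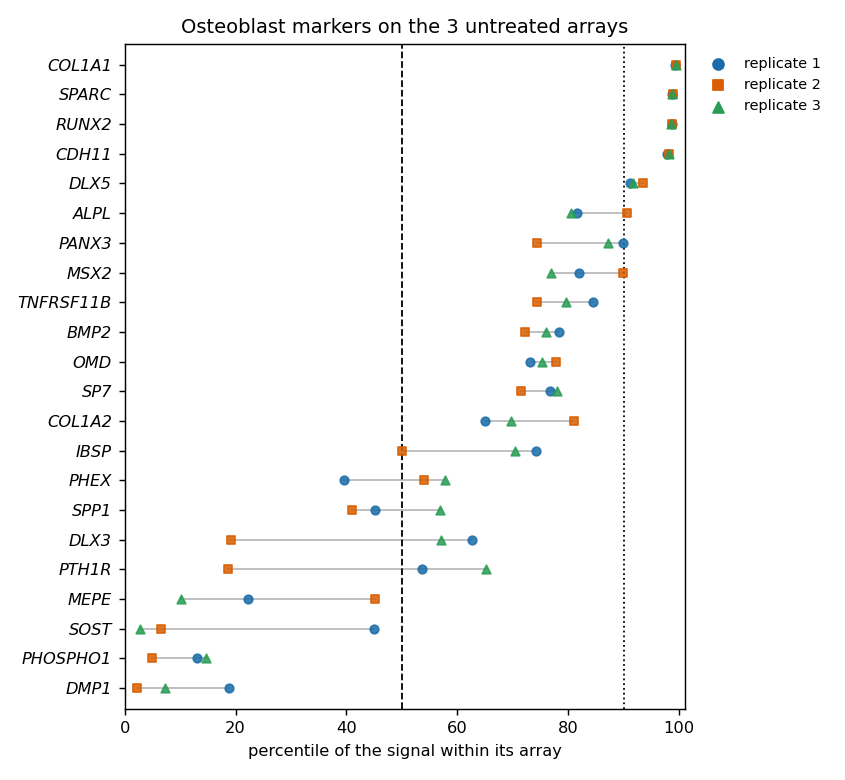
Percentile of the signal within its array (x axis) for 22 osteoblast markers, with 1 point per untreated replicate and a grey line over their range. Dotted and dashed lines mark the 90th and the 50th percentile; the 5 genes at the top lie to the right of the dotted line on every array, and MEPE, SOST, PHOSPHO1 and DMP1 lie to the left of the dashed line.

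Some collagen-making genes beyond type I collagen were bright. Of 22 collagen chains measured, 6 were bright (27.3%, against 15.0% of all genes) and 4 dim (18.2%, against 23.0%). Their median percentile was 74.3. COL5A2 and COL5A1, chains of the fibril-forming type V collagen, gave 3004, 2902 and 3326 and 1545, 2328 and 1393. COL12A1, which lines fibrils, gave 2519.6, 2083 and 3236. The dim chains were COL4A1 and COL4A2 of basement membranes, COL2A1 of cartilage and COL24A1. Without replicate 2, 7 chains counted as dim, and with the median over a gene's probe sets 3 were bright and 6 dim.

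Genes of collagen processing and matrix assembly had a median percentile of 95.1. Of 21 measured, 13 were bright (61.9%, against 15.0% of all genes) and none dim (against 23.0%). They included P4HB, a subunit of prolyl hydroxylase (2082, 2648 and 2436), PPIB, a prolyl isomerase of the endoplasmic reticulum (2243, 2572 and 3035), and PLOD2, a lysyl hydroxylase (1695, 1475 and 1523). TNC (tenascin C), a matrix glycoprotein, gave 1879, 2138 and 2726. The lowest members were BGN (biglycan), with 16.02, 22.4 and 3.07, and LOX (lysyl oxidase), which crosslinks collagen, with 3.68, 74.4 and 10.8 and its highest value on replicate 2. Without replicate 2, 1 member counted as dim, and with the median over a gene's probe sets 6 were bright and 4 dim. Of all genes, 7.57% were bright and 33.9% dim by that median.

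Mesenchymal markers included bright, middling and dim genes. Of 15 measured, 6 were bright (40%, against 15.0% of all genes) and 1 was dim (6.67%, against 23.0%). The median percentile was 72.6. LUM (lumican), a keratan sulphate proteoglycan of collagen fibrils, gave 4813, 3920.3 and 4483. VIM, the mesenchymal intermediate filament, gave 4133, 4553 and 5790.1. FN1 (fibronectin), an adhesive matrix protein, gave 865, 1094 and 1336. The arrays differed more for TWIST1, a mesenchymal transcription factor, with 867, 430.0 and 512 and its highest value on replicate 1, although it was bright on each. S100A4, a calcium-binding protein, gave 445, 314 and 547. PDGFRB, a receptor of pericytes and fibroblasts, was dim with 6.43, 10.5 and 3.56, while its relative PDGFRA gave 59.6, 97.4 and 86.1. DCN (decorin) and THY1, both products of fibroblasts, lay near the middle, at the 53.3rd, 67.1st and 51.9th and the 50.8th, 64.6th and 45.98th percentiles. Without replicate 3, 2 markers counted as dim, and without the _x_at and _s_at probe sets 2 counted as bright.

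Contractile genes were bright as well. Of 10 genes typical of smooth muscle, 7 were bright (70%, against 15.0% of all genes), 3 with the median over a gene's probe sets. Their median percentile was 95.1. ACTA2, named above among the brightest 30, gave 5523, 5439 and 7023. TPM1 (tropomyosin 1) gave 5249.8, 4717 and 6159 and CALD1 (caldesmon) 3950.2, 3290.5 and 4230.4. TAGLN (transgelin) gave 2154, 2572 and 2064 and CNN1 (calponin) 1195, 1059.9 and 1183. All of these bind or form actin filaments and lay above the 90th percentile on every array. MYH11, the smooth muscle myosin heavy chain, was dim with 17.1, 12.03 and 5.46. LMOD1, another defining gene of that tissue, gave 13.9, 21.02 and 12.6. Without replicate 2 the dim members numbered 2.

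Lists of markers for other cell types had medians below that of all genes. In a bulk sample, few cells of a type and little RNA per cell cannot be told apart. No member was bright among 9 endothelial, 9 blood cell, 11 skeletal muscle, 8 adipocyte, 10 neuron, 8 hepatocyte or 6 osteoclast markers. Their median percentiles were 33.9, 49.8, 27.1, 42.3, 36.8, 51.1 and 56.4, all under the 58.4 of all genes. The dim members numbered 5, 4, 5, 3, 4, 3 and 1 in the same order, and 3 for osteoclast markers without replicate 2. As shares of their lists these were 55.6%, 44.4%, 45.5%, 37.5%, 40%, 37.5% and 16.7%, against 23.0% of all genes, so the osteoclast list was not above the background in this count.

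Named markers show how these lists were made up. CDH5, the endothelial cadherin, gave 1.91, 5.64 and 1.67, and VWF, the clotting factor carrier, 2.41, 17.5 and 1.66. SPI1, a myeloid factor, gave 5.17, 3.87 and 0.674, and CD14, the monocyte receptor, 14.6, 3.81 and 0.61. MYOG, a muscle factor, gave 2.88, 10.7 and 2.02, and CKM, the muscle creatine kinase, 3.22, 6.60 and 3.41. All of these lay below the 50th percentile on every array. The highest members were ACTC1, an actin of heart and embryonic muscle (278, 192 and 139.9), PAX7, a muscle stem cell factor (92.1, 183 and 79.9), and CFD, the adipocyte protease adipsin (74.7, 85.4 and 96.5). For the osteoclast, CTSK (cathepsin K) gave 52.2, 84.4 and 34.8.

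Epithelial and cartilage lists each held 1 bright gene, 9.09% of each list against 15.0% of all genes. Dim members were 45.5% and 36.4% of these lists, against 23.0% of all genes. Of 11 epithelial markers, 5 were dim, 8 without replicate 2, and the median percentile was 30.3. KRT18 was bright with 619, 342 and 733. Its only probe set ends in _x_at, so the gene could not be read without such probe sets. Its keratin partner KRT8 gave 39.6, 35.6 and 42.7, and KRT14 of basal epithelium 6.65, 6.84 and 0.568. EPCAM, an epithelial adhesion protein, differed between arrays with 245, 26.00 and 197, high on replicates 1 and 3 and below the middle on replicate 2. Of 11 chondrocyte markers, HAPLN1, the link protein of hyaluronan and aggrecan, was bright with 2546, 859 and 2140.2, and 4 were dim (COL2A1, COL9A1, COMP and CHAD). SOX9, the cartilage factor also found in early skeletal precursors, gave 182, 210.1 and 227.

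**Figure D3:**
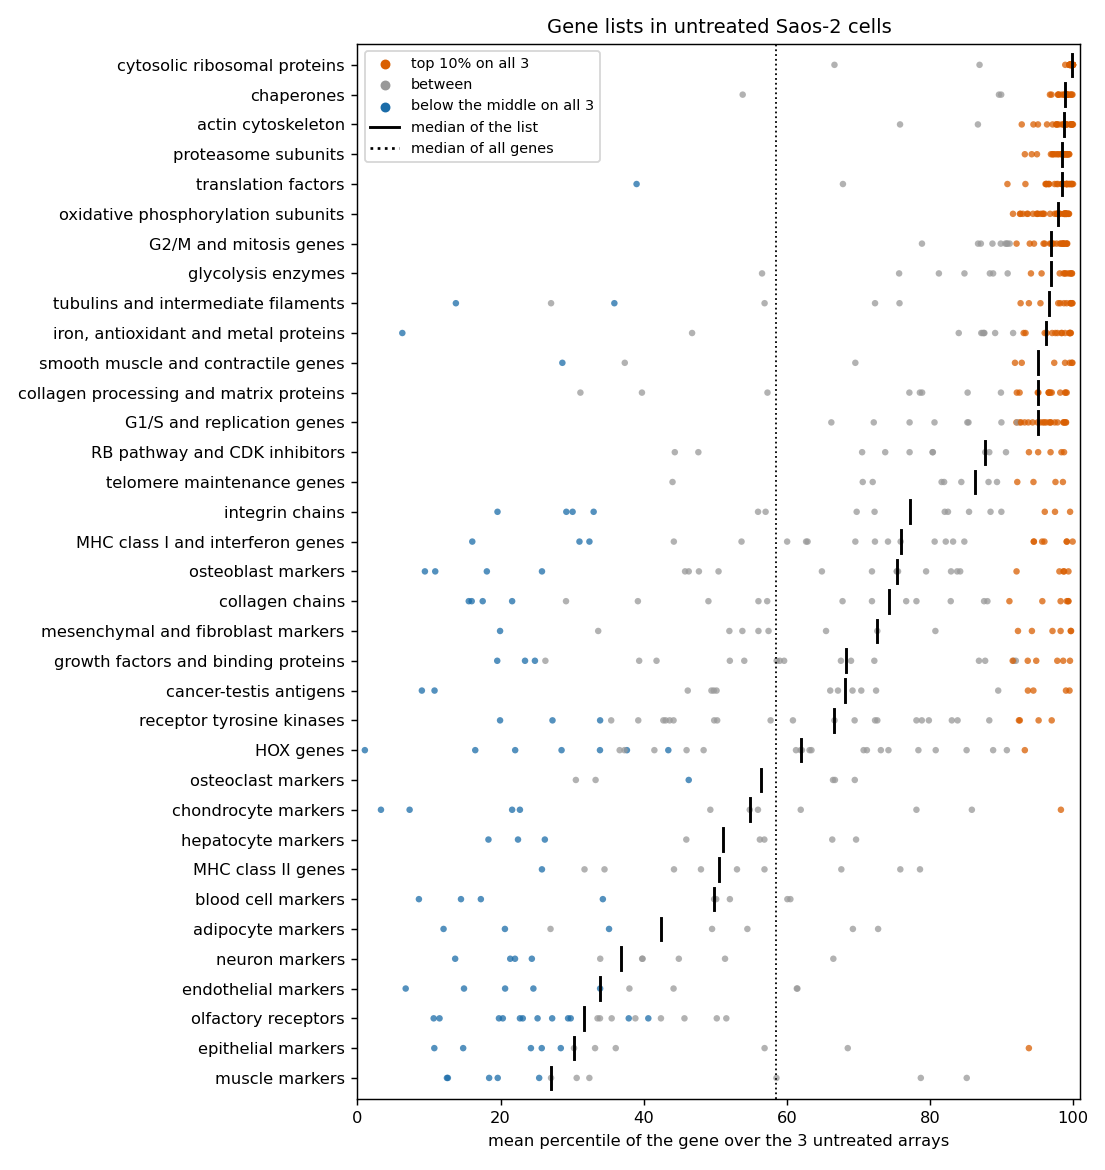
Mean percentile over the 3 untreated arrays (x axis) of each measured gene of 35 lists, 1 row per list, ordered by the list's median (black bar); the dotted line is the median of all genes, 58.4. Orange points are bright on all 3 arrays, blue points dim on all 3 and grey points neither; growth lists lie at the right and lists of other tissues at the left.

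Most measured genes of protein synthesis and turnover were bright. Of 51 cytosolic ribosomal protein genes measured, 49 were bright, with a median percentile of 99.8 and a median range over the arrays of 0.0677 points. The exceptions were RPL27A (362, 204 and 176) and RPLP2 (78.00, 82.5 and 25.8). A further 25 ribosomal genes of the list had no probe set of their symbol alone and were not analysed here. Without probe sets ending in _x_at or _s_at, 12 were bright and 3 dim. Members with no other probe set, such as RPL3, RPL6 and RPL9, left that count, so it is not out of 51.

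Of 30 translation factors, 28 were bright and 1 was dim. EIF1, which finds the start codon, gave 4819.9, 4354 and 6390.1, and EIF3E, of the large initiation complex, 4027, 3459 and 5219. EIF4E, which binds the cap, gave 1127, 715 and 760.2. EIF4A2, a helicase, was dim with 10.7, 47.6 and 7.72. All 27 proteasome subunits measured were bright, from PSMB4 (3287, 3105 and 4593) down to PSMD3 (474, 637 and 407). Without _x_at and _s_at probe sets, 9 translation factors were bright and 2 dim, and 15 proteasome subunits were bright and 2 dim. Of 23 chaperones 20 were bright, 12 without such probe sets, among them HSPD1 of mitochondria (5209, 4277 and 6474), CCT2 of the chaperonin that folds actin and tubulin (4208, 3775 and 6059) and HSPA5 of the endoplasmic reticulum (2546, 2525 and 3582). HSPB1, a small heat shock protein, gave 67.8, 11.7 and 90.6, with replicate 2 far below the others.

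Energy genes were bright on both sides of metabolism. All 39 nuclear genes for oxidative phosphorylation subunits were bright, with a median percentile of 97.9, and 22 without _x_at and _s_at probe sets. COX7A2 of cytochrome oxidase gave 3634, 2938 and 3909, ATP5F1A of ATP synthase 3284, 2649 and 4271, and the lowest, NDUFS1 of complex I, 353, 334 and 483. Of 18 glycolysis genes 11 were bright, 3 without such probe sets, and the median was 96.9. ENO1 (enolase) gave 4924, 5205 and 6463, GAPDH 4693, 4812 and 7049.6 and LDHA (lactate dehydrogenase) 4027, 4058 and 5187. Tissue-restricted isoforms were lower: ALDOC, the brain aldolase, gave 64.8, 164 and 63.6, and ENO2, the neuronal enolase, 16.9, 68.8 and 43.6. The glucose transporter SLC2A1 gave 192, 214 and 154 and hexokinase HK2 346, 233 and 279.6.

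Genes of DNA replication and of mitosis were mostly bright, with 21 of 29 (72.4%) and 21 of 30 (70%), against 15.0% of all genes. None was dim, against 23.0% of all genes, and the median percentiles were 95.02 and 96.9. Without _x_at and _s_at probe sets, 13 of the mitotic genes were bright and 1 dim. RRM2 and TYMS, which make DNA precursors, gave 2595, 1745 and 2943 and 2489, 1812 and 2672. PCNA, the sliding clamp, gave 2088, 1794 and 2258, and MCM6 of the replicative helicase 1692, 981 and 1403. In each of these, replicate 2 was the lowest array by signal. By percentile it was not lowest for the replication list, whose median was 95.1, 95.4 and 94.8 on replicates 1, 2 and 3. E2F1, the factor that drives S phase, lay lower with 97.8, 123 and 91.01, as did CCNE1 (cyclin E1) with 59.4, 84.1 and 115, while CCNE2 gave 1027, 568 and 849.5.

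Of the mitotic genes, PTTG1 (securin) gave 2679, 2328 and 3280.3 and CKS2, a CDK subunit, 2581, 2599 and 2494. CDK1, the mitotic kinase, gave 1989, 1543 and 3268, and its partner CCNB1 (cyclin B1) 1729, 1305 and 1845. These were bright on every array. TOP2A, which untangles chromosomes, gave 1505, 1068 and 2239.8. The proliferation marker MKI67 gave 273, 332 and 329.9, at the 88.2nd, 91.9th and 89.5th percentiles, and so missed the bright class on replicates 1 and 3. PLK1, a mitotic kinase, gave 224, 266 and 204, and the lowest of the list was the phosphatase CDC25C with 127, 96.4 and 201.

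In the retinoblastoma pathway, RB1 blocks E2F factors until cyclin D and CDK4 or CDK6 phosphorylate it, and p16, encoded by CDKN2A, inhibits those kinases. Saos-2 is known to carry a defective RB1. Its probe sets disagreed between arrays: one gave 42.3, 7.97 and 69.4, the other 2.74, 38.2 and 0.321, so that replicate 2 was lowest by the first and highest by the second. CDKN2A was bright with 1655, 1443 and 1980.1, and CDK4 with 2062, 1749.7 and 2177. These arrays lay within 1 percentile point for both genes. Of the D cyclins, only CCND3 (cyclin D3) was bright. It gave 579.9, 571 and 463, cyclin D1 (CCND1) 81.8, 97.7 and 37.4 and cyclin D2 (CCND2) 26.3, 67.3 and 2.58. CDKN1B (p27) was bright with 1312, 699 and 1044, and CDKN1A (p21), a target of p53, gave 136, 142 and 115. E2F3 was bright with 781, 496 and 726. Of 15 genes in the pathway 5 were bright (33.3%, against 15.0% of all genes) and none dim, with a median percentile of 87.7. With the median over a gene's probe sets, 3 were bright and 2 dim.

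MYC, the growth-promoting transcription factor, was bright with 520.2, 412 and 495, at the 93.1st, 93.6th and 92.6th percentiles. MDM2, the ubiquitin ligase of p53, was read through 1 of 10 probe sets with 571, 383 and 437. The arrays lay close together for both. The gene for p53 was not analysed here.

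Receptor tyrosine kinases pass growth signals from outside the cell, and 4 of 27 were bright and 3 dim, 5 without replicate 1, with a median percentile of 66.6. These shares, 14.8% bright and 11.1% dim, stand beside 15.0% and 23.0% of all genes, so the bright count is that of the background. With the median over a gene's probe sets, 1 was bright and 11 were dim. The bright receptors were AXL, the GAS6 receptor (1293, 1137 and 810.0), EPHA2, an ephrin receptor (557, 843 and 700.4), IGF1R, the receptor of insulin-like growth factors (459.6, 328 and 565), and MET, the HGF receptor (514, 300.4 and 532). DDR2, a receptor of fibrillar collagen, gave 222, 278 and 284 and missed the bright class on replicates 1 and 3. EGFR gave 54.98, 96.6 and 90.97 and ERBB2 72.1, 55.8 and 73.3. The dim receptors were PDGFRB, KDR (the main VEGF receptor, 19.2, 13.1 and 9.94) and FLT4 (the lymphatic VEGF receptor, 17.3, 11.7 and 4.11). NTRK2, a neurotrophin receptor, was high on replicate 2 alone, with 22.2, 132 and 12.1.

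**Figure D4:**
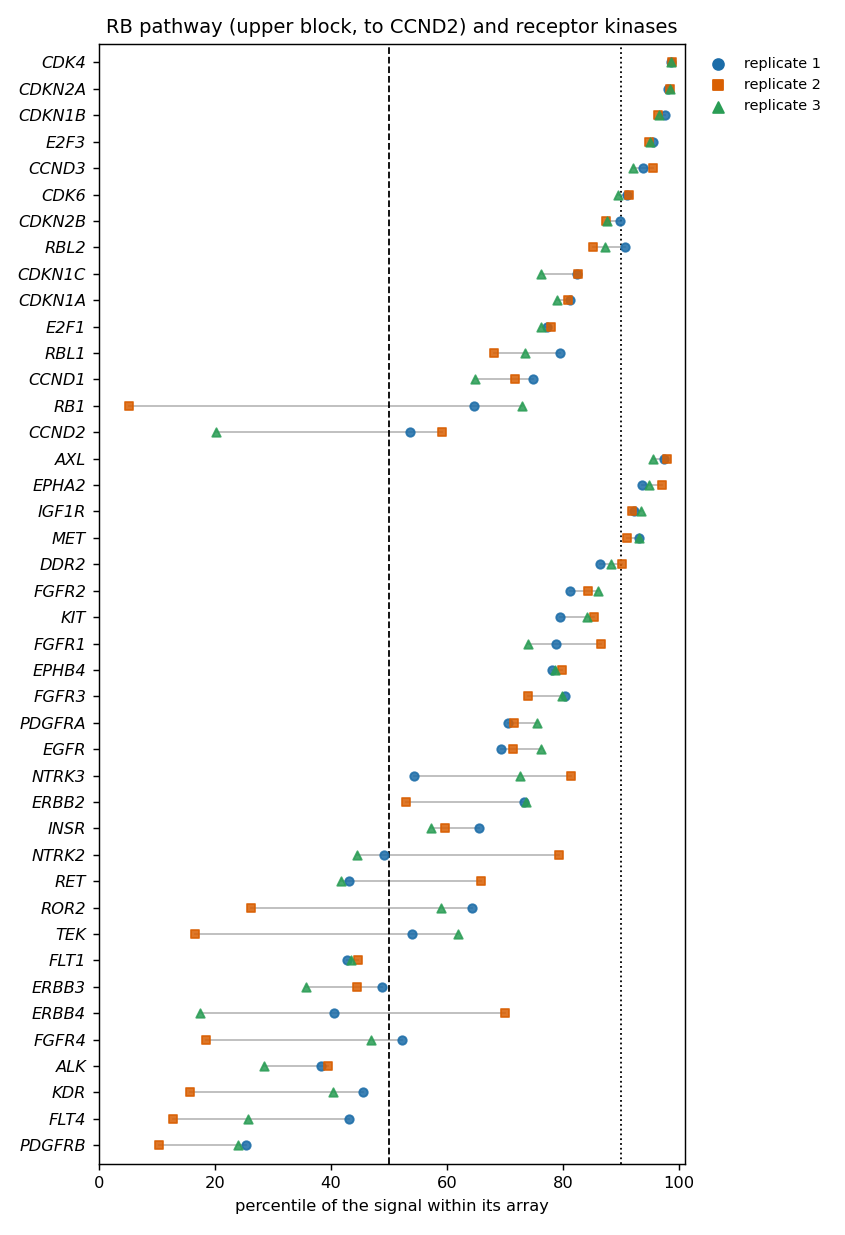
Percentile of the signal within its array (x axis) for 15 genes of the retinoblastoma pathway, down to CCND2, and 27 receptor tyrosine kinases, from AXL down, with 1 point per untreated replicate and a grey line over their range. Genes near the 90th percentile (dotted line) have short lines, while RB1 runs from the 5.16th to the 73.0th percentile and many receptors near the 50th (dashed line) have replicate 2 at 1 end.

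Among 24 secreted growth factors and their binding proteins, 6 were bright and 3 dim, 5 without replicate 2, with a median percentile of 68.3. The shares were 25% bright and 12.5% dim, against 15.0% and 23.0% of all genes. With the median over a gene's probe sets, 2 were bright and 8 dim. The brightest were CCN1 and CCN2, matricellular proteins induced by stretch and serum, with 4012, 3727 and 4283 and 2547, 1646 and 1652, and INHBA, a subunit of activin, with 1692, 1237 and 1143. VEGFA, which draws in vessels, gave 801, 527 and 595, and IGFBP3, a carrier of insulin-like growth factors, 526, 406 and 641. PTN (pleiotrophin) gave 413, 289 and 481. TGFB1 gave 283, 579 and 393 and missed the bright class on replicate 1 alone. The dim members were IGFBP1, IGFBP2 and PDGFA, the last with 4.62, 8.02 and 7.37.

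Olfactory receptors, which sense odours in the nose, served as a list with no known role in bone. None of 20 was bright, against 15.0% of all genes, and 12 were dim (60%, against 23.0%), with a median percentile of 31.7. Their highest mean percentile was 51.5, for OR1D2 (25.6, 54.8 and 15.1). Replicate 2 gave the highest signal of the 3 arrays for most, as for OR51E2 (3.26, 88.7 and 2.55) and OR3A1 (1.23, 46.2 and 4.71). The bacterial probe sets had a median percentile of 22.1, 22.2 and 17.1 on replicates 1, 2 and 3. A second rule, added after the values were seen, called a gene dim when every probe set was at or under the brightest bacterial probe set of its array. It took 5456 genes, of which 4004 were also dim by the first rule.

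Genes whose place differed most between arrays were few at the bright end. No gene lay in the top 10% on 1 array and below the 50th percentile on both others, or the reverse. Among genes in the top 25% on at least 1 array, the 8 with the largest gap to the nearer array were taken for each replicate. For replicate 1 all 8 were low on it and highest on replicate 2, as FAM20A, a secretory pathway pseudokinase of enamel and bone mineral, with 2.20, 125 and 18.7, and CYP8B1, a bile acid enzyme, with 2.76, 128 and 12.2. For replicate 3 all 8 were low on it and again highest on replicate 2, as CDH6 (cadherin 6) with 27.9, 124 and 0.747. SLC6A12, a betaine transporter, gave 33.6, 113 and 1.64. The genes named here reached the top 25% on replicate 2 alone. Their high place there follows from that filter and is no separate result.

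For replicate 2 the genes ran both ways. PRLHR, a peptide receptor of the brain, gave 1.77, 123 and 0.61. CNGB3, an ion channel of cone cells, gave 1.73, 114 and 0.494, and CHL1, a neural adhesion protein, 2.66, 122 and 1.02. SOX9-AS1, a non-coding RNA next to SOX9, gave 2.55, 123 and 0.238. All 4 were high on replicate 2, the only array that brought them into the choice, and below the 10th percentile on both others. CBY1, an inhibitor of beta-catenin, went the other way with 119, 7.82 and 153, as did GNPTG, a subunit of the enzyme that tags lysosomal proteins, with 83.97, 7.53 and 65.2. KLHL23 and MIF4GD also were low on replicate 2 alone. The bacterial probe sets were brightest on replicate 2 as well, and their part in these gaps was not tested.

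Metallothioneins, small proteins that bind zinc and copper, were a bright family that differed between arrays. MT2A gave 1667, 583 and 1295, MT1X 1221, 455 and 1028 and MT1E 1702, 743 and 2020.4, and replicate 2 was the lowest of the 3 for each, as it was for MT1F, MT1G and MT1H. MT1M was dim with 1.57, 8.58 and 1.19. Members of this family share sequence, so single members are uncertain, and they were singled out after their values were seen.

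Probe sets of 1 gene often stood far apart. Of 10511 genes with at least 2 probe sets, 2118 had one in the top 10% on all 3 arrays, and in 471 of those (22.2%) another lay below the 50th percentile on all 3. A gene called bright therefore rests on its best probe set.

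Bright genes had CpG-rich promoters more often than dim genes. RefSeq gave promoters for 15357 of the 19741 genes, and a ratio of observed to expected CpG of at least 0.6 was held by 64.4% of them. Among bright genes the share was 88.3% of 2540 promoters (exact 95% binomial interval 87.0 to 89.6), and among dim genes 35.8% of 3225 (34.2 to 37.5). The median GC content was 64.6% for bright and 56.4% for dim genes. The intervals cover counting error only, and neighbouring genes can share a promoter.

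The GC box stood in 68.0% of bright and 38.2% of dim promoters, against 56.3% of all. The TATA box ran the other way, in 5.71% of bright and 13.5% of dim promoters, against 8.32% of all. The CCAAT box differed less, with 38.7% of bright and 32.5% of dim promoters, against 34.1% of all. A GC box is itself rich in G and C, so its share moves with GC content, and a matching string is not a bound site. By bins of 10% of genes, the CpG share rose from 34.3% in the dimmest bin to 43.7% in the fourth and 82.6% in the seventh, then to 88.1% in the brightest.

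Lists differed in the same feature. All 25 promoters found for the 30 brightest genes had a CpG ratio of at least 0.6, as did 44 of 45 for ribosomal protein genes, while 2 of 12 for osteoblast markers did (16.7%, exact 95% binomial interval 2.09 to 48.4). Collagen chains had it in 9 of 14. No promoter was given for COL1A1, CDH11 or DLX5, so the share for osteoblast markers does not cover those bright members.

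**Figure D5:**
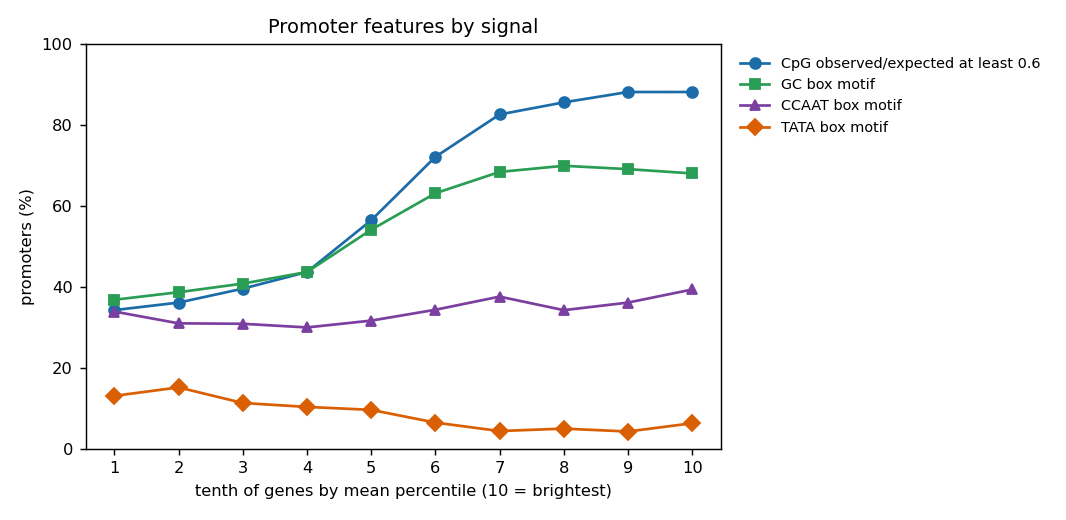
Share of promoters (y axis, percent) with a CpG ratio of at least 0.6, a GC box, a CCAAT box or a TATA box, for genes grouped into 10 bins by mean percentile over the 3 untreated arrays (x axis, 10 = brightest). The CpG line climbs from 34.3% to 88.1%, the GC box line rises to the seventh bin and then levels off, the CCAAT line stays between 29.98% and 39.4%, and the TATA line goes from 13.1% in the dimmest bin to 15.2% in the second and 6.31% in the brightest.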

How the data were processed

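The deposited values are MAS5 signals, an intensity per probe set that has not been put on a log scale; that the authors used MAS5 is known from the submitters' processing notes, while version and settings are not given in the sources used here. The program scales each array to a common mean. Of 54675 probe sets, 62 controls were set aside. Among the rest, GEO's platform annotation named a single gene for 41091 and more than 1 gene for 1801, and left 11721 without a name; 58 probe sets of Y-linked genes and XIST were left out. The number of arrays (3) limits the precision.

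Percentiles were computed within each array, in Python 3.11.15 with pandas 2.3.3, so no scaling between arrays was needed. A gene was read through its probe set with the highest mean percentile. Bright means at or above the 90th percentile on all 3 arrays, and dim means that every probe set of the gene lay below the 50th on all 3. Only 1 group was described, so no test was run and no p-value is given. The scripts were tested on simulated data.

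The 35 gene lists (742 genes, of which 658 were measured) were written from textbook knowledge, and the arrays and lists were chosen with earlier results of these data known. Named genes were the 30 brightest, up to 6 brightest and up to 6 dim members of each list, the 8 with the largest gap for each array and a fixed set; other list members were named after their values were seen. Promoters came from RefSeq on GRCh38.p14, which may not be the build of the array's design. The alternatives varied the probe set that stands for a gene, the thresholds, the floor or pseudocount before log2, and the arrays used.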

Additional observations from a re-analysis of the deposited data

How the results depend on the processing

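The median rho over the pairs of arrays was 0.730, 0.885 in the top 10% of probe sets (added after the data were seen), and 0.710 to 0.846 with 1 replicate left out, the highest without replicate 2. The count of 2953 bright genes became 1495 with the median over a gene's probe sets and 1660 with percentiles over genes. Without _x_at and _s_at probe sets it was 1677 of 17067 genes. Genes and list members with no other probe set left that count. The bright count was 1488 at the top 5% and 6492 at the top 25%, and ran from 3049 to 3201 with 1 replicate left out. The 4547 dim genes became 7913 with percentiles over genes, 1027 in the lowest 25%, 2765 below the 40th percentile, and 5036 to 6312 with 1 replicate left out. Of list members, 331 were bright, 155 without _x_at and _s_at probe sets, and 334 to 338 with 1 replicate left out; 80 were dim, 135 with the median probe set, 143 with percentiles over genes, 18 in the lowest 25%, and 88 to 103 with 1 replicate left out. The CpG share was 86.9% for the top 25% and 33.6% for the lowest 25%, and the CCAAT share 36.7% and 35.5%, so the CCAAT difference between bright and dim genes shrank. Of 490 repeated counts for single lists, 368 stayed within 1.5 times and 122 did not. The cause of these changes was not tested, beyond fewer arrays or probe sets entering a count. Dim signals limit every statement below the 73.25th percentile, the place of the brightest bacterial probe set on replicate 2. No paired analysis was possible because only 1 group was described and no result came from a test.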

Other observations

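Genes of the cytoskeleton were mostly bright when each was read through its brightest probe set. Of 25 actin cytoskeleton genes 23 were bright, 14 without _x_at and _s_at probe sets, among them CFL1 (cofilin), which severs filaments, with 3836, 4004 and 4528 on replicates 1, 2 and 3. Of 18 genes for tubulins and intermediate filaments 12 were bright, 4 without such probe sets, and TUBB3, often used as a neuron marker, gave 1515, 1495 and 1683, while the neuron list held no bright gene. Of 16 integrin chains, which anchor cells to matrix, 3 were bright (18.8%, against 15.0% of all genes) and 4 dim (25%, against 23.0%), so neither share stood far from the background. The bright chains were ITGB1 (3869, 3849.9 and 4578), ITGAV (1386, 749 and 1619) and ITGB5 (839.6, 589 and 1043). The dim chains were ITGA2, ITGA7, ITGA8 and ITGB4, and with the median over a gene's probe sets 1 chain was bright. Of 24 genes for iron, antioxidant and metal proteins 15 were bright, 7 without _x_at and _s_at probe sets, with TFRC, the transferrin receptor, at 4131, 3197 and 4560.3 and TXN (thioredoxin) at 5085, 3344 and 5339.7.

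Cancer-testis antigens, which are silent in most adult tissues but return in tumours, had 4 bright and 2 dim members of 16. Their shares were 25% and 12.5%, against 15.0% and 23.0% of all genes. MAGEA6 gave 3774, 3184 and 4324, MAGEA12 2526, 1875 and 2726, CTAG2 727, 528 and 529 and MAGEA1 580.1, 377 and 639.6; all 4 probe sets end in _x_at, and no member was bright without such probe sets. Of 27 HOX genes, which mark position along the body, HOXC6 was bright (459, 423 and 578), though not without such probe sets. This bright share was 3.70%, against 15.0% of all genes, and 2 counted as bright when replicate 3 was left out. The 7 dim HOX genes were 25.9%, near the 23.0% of all genes. Of 23 genes of MHC class I and the interferon response 7 were bright (30.4%, against 15.0% of all genes). The bright genes included ISG15 (913, 461 and 989.6) and IFI44 (693, 373 and 844), and none was bright without _x_at and _s_at probe sets. MX1 gave 16.96, 12.8 and 9.49 and was dim. None of 10 MHC class II genes was bright, 1 was dim (10%), and 2 counted as dim when replicate 1 or replicate 2 was left out. Saos-2 is known to maintain telomeres without telomerase. TERT, the catalytic subunit of telomerase, gave 27.9, 26.8 and 10.99, at the 55.2nd, 34.2nd and 42.6th percentiles. ATRX, a chromatin remodeller, gave 67.6, 81.5 and 103 by its highest probe set, at percentiles of 72.4, 65.8 and 77.7. Another ATRX probe set lay at percentiles of 19.2, 1.00 and 1.82, so the probe sets of this gene disagreed. Of 12 telomere genes 4 were bright (33.3%, against 15.0% of all genes) and none was dim (against 23.0%). Without replicate 1, 1 counted as dim.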
